A study of Mus musculus with 6 samples.

Results

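The genes described here are 10 RNA-binding regulators of alternative splicing in muscle, taken by gene name from a table of FPKM values for mouse hearts: Rbfox1, Rbfox2, Rbm20, Rbm24, Mbnl1, Mbnl2, Celf1, Celf2, Ptbp1 and Ptbp2. All 10 were found, each on 1 gene ID, among 54532 genes in the table, and all 10 were among the 12568 genes whose mean reached 1 FPKM and that entered the test. FPKM is the number of fragments assigned to a gene, scaled by gene length and by a size of each library. The sizes implied here were proportional to median-ratio size factors, not to assigned fragments, and comparison between hearts rests on that scaling. Summed FPKM ran from 315632 to 339917 in Wtap-flox and from 357870 to 388328 in Wtap-CKO. Between genes FPKM depends on the length that came with the values, which for some genes is far above that of the canonical GENCODE transcript. Mbnl1 has 18717 bases against 5587 and Celf2 has 25884 against 8182, while Rbfox1 has 4400 against 4403. The order of levels and the size of pair shares below carry this limit. Hearts came from mice 4 days old. One group was Wtapflox/flox (Wtap-flox below, 3 hearts), whose Wtap alleles are flanked by loxP sites, and the other was labelled Wtap-CKO (3 hearts), the conditional knockout of Wtap, a regulatory subunit of the complex that writes N6-methyladenosine on messenger RNA. For the Cre driver, the deleted exons, any Cre in Wtap-flox hearts and the sex of the mice, the sources used here give nothing. The series concerns WTAP in heart development, and the question put to these genes is which of them differed in level between the groups.

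Splicing regulators of this kind bind short elements in or near an alternative exon and promote or block its inclusion. Rbfox proteins bind UGCAUG elements, RBM20 binds UCUU elements and holds back exons of titin and of calcium-handling genes, and RBM24 promotes inclusion of exons of sarcomere genes. MBNL and CELF proteins act on many of the same transcripts in opposite directions around birth, when fetal isoforms of heart genes give way to adult ones. PTBP1 binds pyrimidine-rich RNA and represses exons used in muscle and nerve, and its paralog PTBP2 is best known from neurons. Values at gene level count reads over the whole gene and do not show which exons were used.

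Between 15649028 and 18045599 fragments per library were assigned to genes. Wtap-CKO 3 stood apart from the other libraries labelled Wtap-CKO on the second principal component, which held 20.4% of the variance, so the genes described below as changed are also given without it. Wtap over the whole gene was at 7.77, 8.74 and 10.9 FPKM in Wtap-flox and at 9.32, 7.75 and 9.46 FPKM in Wtap-CKO, values that overlap, so the targeted gene does not check the labels. The hearts carried the defining markers of heart muscle, such as Myh6, whose mean was 3417 FPKM over Wtap-flox hearts and 3055 over Wtap-CKO hearts. The summed level of 6 cardiomyocyte markers ran from 9066 to 10753 FPKM in Wtap-flox and from 7992 to 10472 in Wtap-CKO, which overlap. Of the skeletal muscle markers, Myod1 was listed at 0 in every library and Myog at 0 in all Wtap-CKO libraries. In bulk hearts, fewer cells of a type and less RNA per cell cannot be told apart.

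Rbfox1 was lower and Ptbp2 higher in the hearts labelled Wtap-CKO, and the other 8 regulators did not pass the test. The test was limma on log2(FPKM + 1), with Benjamini-Hochberg adjustment over all tested genes and a threshold of 0.05. Of all tested genes 16.6% passed it, 9.91% higher and 6.69% lower, so 2 of 10 is close to the background and is not a result about the regulators as a group. Their median log2 fold change was -0.03, beside 0.00 over all tested genes. The median size of the change regardless of sign was 0.12 for the regulators and 0.23 for all tested genes. Values of the groups did not overlap for the same 2 of 10 genes, 1 in each direction, against 37.1% of all tested genes, 19.8% higher and 17.3% lower.

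**Figure D1:**
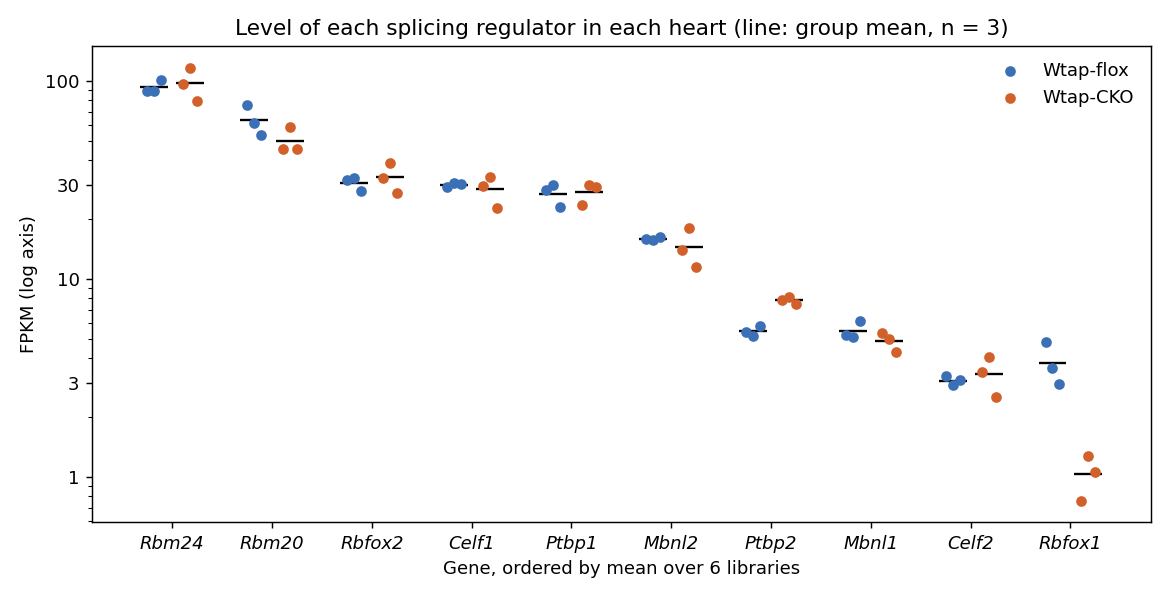
FPKM of each regulator in each of the 6 hearts on a log axis, with genes ordered by their mean over the 6 libraries and horizontal lines at the group means (n = 3). Rbm24 and Rbm20 lie highest, and the 2 groups of points lie apart only for Rbfox1 and Ptbp2.

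The regulators differed in level by far more than any of them differed between the groups. In Wtap-flox hearts the muscle-enriched Rbm24 was the highest, at a mean of 93.1 FPKM, and Rbm20 followed at 63.6 FPKM. Rbfox2 (30.6), Celf1 (30) and Ptbp1 (27.0) formed a middle tier in which the ranges of neighbours overlapped. Mbnl2 stood at 16.0 FPKM. Mbnl1 (5.48) and Ptbp2 (5.45) overlapped each other, as did Rbfox1 (3.78) and Celf2 (3.07) at the bottom. The Wtap-flox hearts held 4065 fragments of Celf2 and 850 of Rbfox1, so the order of these genes rests on the lengths used, 25884 and 4400 bases. In Wtap-CKO hearts the first 6 places were the same. Below them Ptbp2 (7.80 FPKM) lay above Mbnl1 (4.86) without overlap, and Celf2 (3.32) lay above Rbfox1 (1.03), also without overlap.

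Rbfox1 (ENSMUSG00000008658, chromosome 16, 5885355 to 7411526 on the plus strand, GRCm38) encodes the Rbfox protein of mature muscle and brain. The 3 Wtap-flox hearts held 4.82, 3.56 and 2.96 FPKM, and the 3 Wtap-CKO hearts held 0.760, 1.28 and 1.06. The lowest Wtap-flox heart was still above the highest Wtap-CKO heart. These values rest on 370, 249 and 231 fragments in Wtap-flox and on 54, 87 and 82 in Wtap-CKO. The mean fell from 3.78 ± 0.950 to 1.03 ± 0.261 FPKM (SD, n = 3), a level 3.66 times lower. On the log2(FPKM + 1) scale, which understates changes at this level, the fold change came to -1.22 (95% interval -1.61 to -0.84, limma, adjusted p = 0.00252). On recovered counts with limma-voom the log2 fold change was -1.87 (adjusted p = 0.00032), over 1.5 times the value on the other scale. Without Wtap-CKO 3 it was -1.24 on log2(FPKM + 1) (adjusted p = 0.00697, limma).

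The promoter windows of Rbfox1 are printed because RefSeq gives the gene 2 separate starts, more than a megabase apart, and the gene-level value adds up the transcripts of both. Each window runs from 250 bases before to 50 bases after a start (RefSeq, GRCm38.p6, plus strand). Capitals mark every match, on either strand, to the E-box (CANNTG), the GC box (GGGCGG), the CCAAT box, the TATA box (TATAAA), the M-CAT element (CATTCC), the GATA element (AGATAA) and the MEF2 element.
Rbfox1, upstream start, chr16:5884543-5884842: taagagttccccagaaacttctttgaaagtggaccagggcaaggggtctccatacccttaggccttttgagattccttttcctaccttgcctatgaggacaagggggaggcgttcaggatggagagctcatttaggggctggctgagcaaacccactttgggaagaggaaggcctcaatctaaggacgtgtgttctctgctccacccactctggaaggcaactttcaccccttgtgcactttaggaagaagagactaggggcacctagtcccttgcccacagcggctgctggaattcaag
Rbfox1, inner start, chr16:7069585-7069884: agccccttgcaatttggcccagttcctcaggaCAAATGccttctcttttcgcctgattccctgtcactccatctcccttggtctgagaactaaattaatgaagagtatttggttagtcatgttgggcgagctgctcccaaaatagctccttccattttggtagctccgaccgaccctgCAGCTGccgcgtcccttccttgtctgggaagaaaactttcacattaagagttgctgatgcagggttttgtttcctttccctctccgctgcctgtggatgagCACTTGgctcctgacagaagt
The upstream window held 0 matches to any of the 7 motifs, and the inner window held 3 E-boxes and 0 of the others. An E-box was found in 72.3% of the 32851 promoter windows in the RefSeq table. GC content was 52.7% and 50% in the 2 windows, beside a median of 52.7% over all windows. A match is a description of the letters and says nothing of a factor's binding.

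Rbfox2 (ENSMUSG00000033565, chromosome 15, 77078990 to 77307004, minus strand) is the broadly expressed Rbfox gene and the main one at this age by level. It stood at 31.7, 32.4 and 27.7 FPKM in Wtap-flox and at 32.4, 38.5 and 27.2 FPKM in Wtap-CKO. The groups overlapped, and the log2 fold change came to 0.08 (95% interval -0.26 to 0.43, limma, adjusted p = 0.75). That interval allows a ratio of FPKM + 1 between 0.834 and 1.34. Rbfox1 supplied 13.2%, 9.91% and 9.65% of the summed FPKM of Rbfox1 and Rbfox2 in the Wtap-flox hearts. In the Wtap-CKO hearts it supplied 2.29%, 3.22% and 3.75%. The mean share was 10.9 ± 1.99% against 3.09 ± 0.736% (SD, n = 3), with no overlap. An exact two-sided permutation test of this share gave p = 0.1, the smallest that 3 against 3 allows, and 0.167 after adjustment over the 5 pairs of genes compared this way.

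Ptbp2 (ENSMUSG00000028134, chromosome 3, 119718742 to 119784466, minus strand) was the 1 regulator that was higher in the hearts labelled Wtap-CKO. Its FPKM was 5.38, 5.16 and 5.79 in Wtap-flox and 7.81, 8.12 and 7.49 in Wtap-CKO. The groups lay apart and the spread within each was small. The mean rose from 5.45 ± 0.323 to 7.80 ± 0.314 FPKM (SD, n = 3), 1.43 times the level in Wtap-flox, on 2555 and 3518 fragments in all. The log2 fold change came to 0.45 (95% interval 0.21 to 0.69, limma, adjusted p = 0.0231), and 0.48 without Wtap-CKO 3 (adjusted p = 0.0270, limma). Leaving out any one of Wtap-flox 1, Wtap-flox 2, Wtap-CKO 1 and Wtap-CKO 2 ended the call, with adjusted p (limma) between 0.0554 and 0.0974, and so did testing every gene without a filter on low values (adjusted p = 0.0520). It was also lost when libraries were rescaled to a fixed total (TPM), with a log2 fold change of 0.31 (adjusted p = 0.101), or to a total without mitochondrially encoded genes, with 0.30 (adjusted p = 0.128).

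Ptbp1 (ENSMUSG00000006498, chromosome 10, 79854427 to 79864771, plus strand), whose product is known to repress Ptbp2 by keeping out one of its exons, stood at 28.2, 29.7 and 23.1 FPKM in Wtap-flox. The Wtap-CKO hearts held 23.6, 29.8 and 29.2 FPKM, and the groups overlapped. Its log2 fold change came to 0.03 (95% interval -0.31 to 0.36, limma, adjusted p = 0.917), and its sign turned under each of the 4 scalings tried other than that of the deposited values. It shares 4297 bases of its span with Plppr3, a coding gene on the other strand with a mean of 1.81 FPKM, and the sources used here do not give how reads from shared bases were counted. Ptbp1 took 84.0%, 85.2% and 79.9% of the summed FPKM of Ptbp1 and Ptbp2 in Wtap-flox and 75.1%, 78.6% and 79.6% in Wtap-CKO. The groups lay apart by a small margin, with a mean difference of -5.27 percentage points (exact two-sided permutation test, p = 0.1, adjusted 0.167).

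The exon through which PTBP1 is known to control Ptbp2 is printed with the matching exon of Ptbp1, since both genes are known to be set by skipping of this exon. Each is exon 10 of the 14 exons of the gene's canonical GENCODE M39 transcript, lies within the coding sequence and has 34 bases, which is not a multiple of 3. Capitals mark the bases at which the pair differ.
Ptbp1, transcript bases 1401 to 1434: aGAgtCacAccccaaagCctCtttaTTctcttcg
Ptbp2, transcript bases 1640 to 1673: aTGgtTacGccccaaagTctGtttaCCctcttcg
The pair share 26 of 34 bases. GENCODE lists 9 Ptbp2 transcripts with the exon and 4 that join its neighbours directly, and 5 of the 9 and all 4 of the 4 are annotated as targets of nonsense-mediated decay. For Ptbp1 the counts are 14 with the exon and 2 without, of which 5 and 2 carry that annotation. Gene-level FPKM adds up the forms with and without the exon.

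The promoter window of Ptbp2 is shown for contrast with Rbfox1, with the same motifs in capitals (RefSeq, GRCm38.p6, minus strand).
Ptbp2, chr3:119783339-119783638: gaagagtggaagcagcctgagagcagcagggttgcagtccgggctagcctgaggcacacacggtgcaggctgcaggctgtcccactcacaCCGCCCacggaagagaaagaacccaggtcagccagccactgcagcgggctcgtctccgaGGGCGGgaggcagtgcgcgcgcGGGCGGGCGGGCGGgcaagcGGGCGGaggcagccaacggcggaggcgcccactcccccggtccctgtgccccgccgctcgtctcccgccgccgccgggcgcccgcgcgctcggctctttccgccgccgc
It held 6 GC boxes, some overlapping, and 0 matches to the other 6 motifs, at a GC content of 74.7% with 36 CpG dinucleotides, against 3 and 7 CpG in the Rbfox1 windows. A GC box was found in 35.7% of all windows. The RefSeq table held 14 windows for 8 of the 10 regulators. Of these, Celf1 held 6 GC boxes in its window, as Ptbp2 did, and the richest windows of Mbnl1 and Celf2 held 4 and 3. A link between these motifs and the levels was not tested.

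Rbm20 (ENSMUSG00000043639, chromosome 19, 53677306 to 53867080, plus strand), the titin splicing repressor of the heart, stood at 75.6, 61.4 and 53.7 FPKM in Wtap-flox. The Wtap-CKO hearts held 45.2, 58.8 and 45.4 FPKM, so that the highest Wtap-CKO heart lay above the lowest Wtap-flox heart. Means were 63.6 ± 11.1 and 49.8 ± 7.81 FPKM (SD, n = 3). The log2 fold change of -0.34 did not pass (95% interval -0.73 to 0.05, limma, adjusted p = 0.212), and the interval allows anything from a ratio of 0.601 to one of 1.03. It was negative under all 19 alternatives, between -0.52 and -0.21, and passed in 0 of them. Rbm24 (ENSMUSG00000038132, chromosome 13, 46418434 to 46431095, plus strand) stood at 88.7, 89.0 and 101 FPKM in Wtap-flox and at 96.3, 117 and 79.3 FPKM in Wtap-CKO. The Wtap-CKO hearts thus held both the highest and the lowest value of the 6, and the log2 fold change came to 0.05 (95% interval -0.34 to 0.44, limma, adjusted p = 0.860). Rbm20 made up 46.0%, 40.8% and 34.6% of the summed FPKM of Rbm20 and Rbm24 in Wtap-flox and 31.9%, 33.4% and 36.4% in Wtap-CKO. These shares overlapped (exact two-sided permutation test, p = 0.2, adjusted 0.25).

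**Figure D2:**
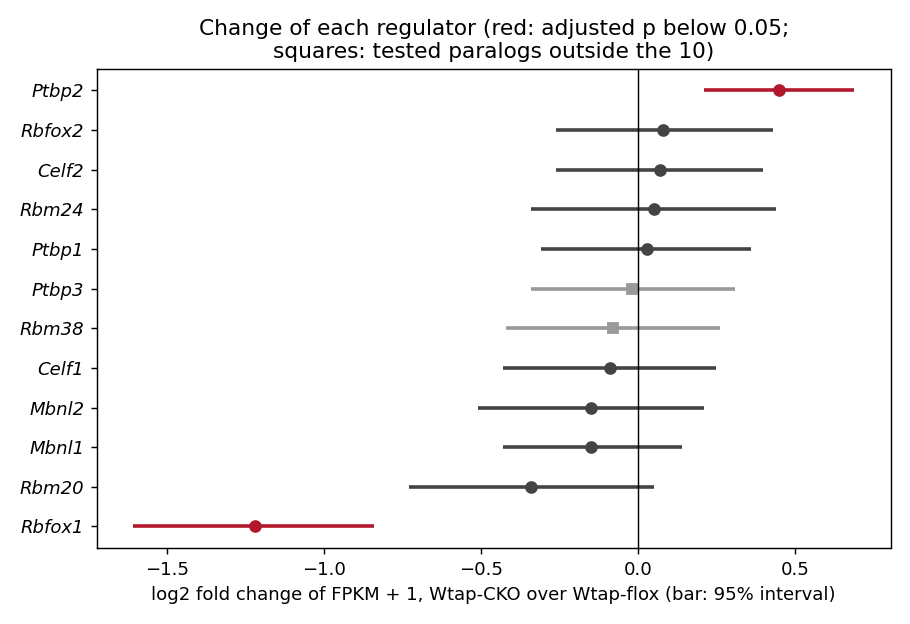
Log2 fold change of FPKM + 1 in Wtap-CKO over Wtap-flox with its 95% interval, for the 10 regulators (circles) and for Ptbp3 and Rbm38, the tested paralogs outside the 10 (squares). The intervals of Rbfox1, at -1.61 to -0.84, and Ptbp2, at 0.21 to 0.69, lie clear of 0, and the others cross it.

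The muscleblind genes, whose products drive the switch to adult splicing, did not pass. Mbnl1 (ENSMUSG00000027763, chromosome 3, 60472830 to 60629750, plus strand) stood at 5.24, 5.09 and 6.12 FPKM in Wtap-flox and at 5.36, 4.97 and 4.26 FPKM in Wtap-CKO. Its log2 fold change came to -0.15 (95% interval -0.43 to 0.14, limma, adjusted p = 0.468). Mbnl2 (ENSMUSG00000022139, chromosome 14, 120275669 to 120431697, plus strand) stood at 15.9, 15.7 and 16.3 FPKM in Wtap-flox and at 14.0, 18.1 and 11.5 FPKM in Wtap-CKO. The Wtap-flox hearts were close together, and the Wtap-CKO hearts lay on both sides of them. Its log2 fold change came to -0.15 as well (95% interval -0.51 to 0.21, limma, adjusted p = 0.563). Mbnl1 held 25.5 ± 1.55% of the summed FPKM of Mbnl1 and Mbnl2 over Wtap-flox hearts and 25.4 ± 3.41% over Wtap-CKO hearts (SD, n = 3). The difference of -0.0962 percentage points was well inside the spread between hearts (exact two-sided permutation test, p = 0.9), and its sign turned without Wtap-flox 3 (0.799) or Wtap-CKO 2 (1.86).

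The CELF genes, whose products favour fetal splicing in the heart, did not pass either. Celf1 (ENSMUSG00000005506, chromosome 2, 90940382 to 91019497, plus strand) stood at 29.2, 30.6 and 30.2 FPKM in Wtap-flox and at 29.6, 32.7 and 22.9 FPKM in Wtap-CKO. Its log2 fold change came to -0.09 (95% interval -0.43 to 0.25, limma, adjusted p = 0.719), and it was 0.05 without Wtap-CKO 3. Celf2 (ENSMUSG00000002107, chromosome 2, 6539694 to 7509563, minus strand) stood at 3.22, 2.91 and 3.08 FPKM in Wtap-flox and at 3.40, 4.03 and 2.53 FPKM in Wtap-CKO. Its log2 fold change came to 0.07 (95% interval -0.26 to 0.40, limma, adjusted p = 0.775). Celf1 held 90.1%, 91.3% and 90.7% of the summed FPKM of this pair in Wtap-flox and 89.7%, 89.0% and 90.0% in Wtap-CKO. The shares did not overlap but differed by only 1.11 percentage points on average, with Wtap-CKO lower (exact two-sided permutation test, p = 0.1, adjusted 0.167).

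**Figure D3:**
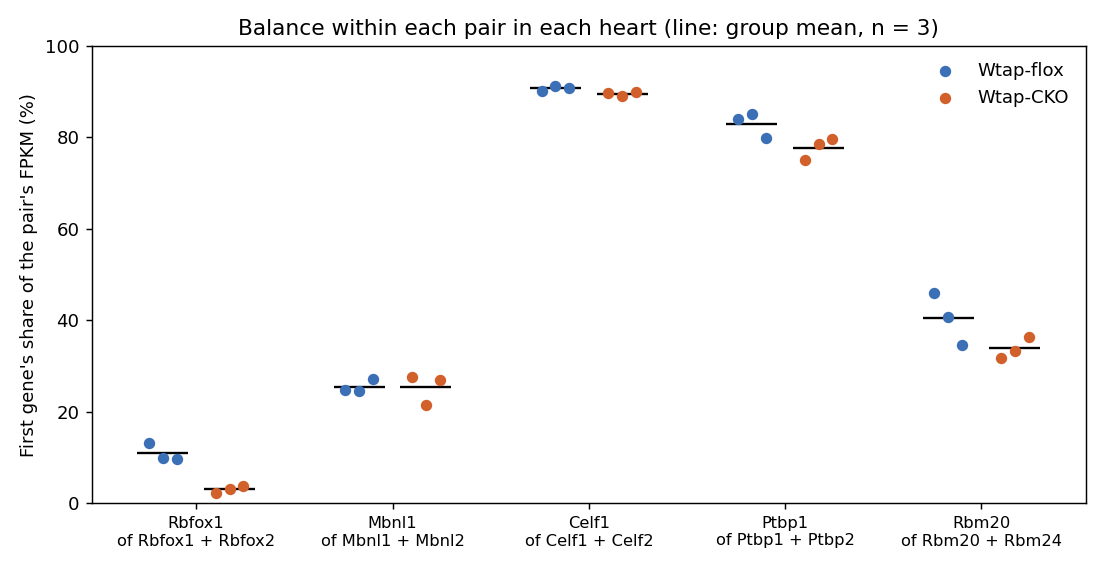
Share of the first gene in the summed FPKM of each pair, in percent, in each of the 6 hearts, with lines at the group means (n = 3). The shares of Rbfox1 lie between 9.65% and 13.2% in Wtap-flox and between 2.29% and 3.75% in Wtap-CKO, while those of Mbnl1 overlap.

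Several regulators followed the same profile over the single hearts rather than over the groups. Rbfox2, Rbm24, Mbnl2, Celf1 and Celf2 each had their highest value of the 6 hearts in Wtap-CKO 2 and their lowest in Wtap-CKO 3. This was so for 5 of the 10 regulators, for 1 of the 22 tested genes on the list of other splicing regulators described below, for 6 of 30 (20%) of the tested genes with regulated exons, also described below, and for 3.99% of all tested genes. In Wtap-CKO 3 the log2 deviation of these 5 genes from their mean over the libraries ran from -0.365 for Mbnl2 to -0.204 for Rbfox2. In Wtap-CKO 2 it ran from 0.166 for Celf1 to 0.309 for Rbm24. Ptbp1 and Ptbp2 were also highest in Wtap-CKO 2 but not lowest in Wtap-CKO 3. The pattern was noticed in these values and is given as a description. The sum of 6 macrophage markers also set Wtap-CKO 3 apart: it was 99.5 FPKM there, 58.3 and 49.2 in Wtap-CKO 1 and 2, and between 33.5 and 39.6 in Wtap-flox. Most of it in Wtap-CKO 3 was Lyz2 (57.8 FPKM) and C1qa (25). Ptprc, Cd68 and Csf1r were also highest in that heart. Adgre1 was not, at 2.45 FPKM there against 2.66 and 4.44 in Wtap-CKO 1 and 2. Between the groups, the 5 macrophage markers tested all had positive log2 fold changes, and C1qa was called higher (0.78, limma, adjusted p = 0.0336). The part of macrophage markers in the profiles of the regulators was not tested.

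**Figure D4:**
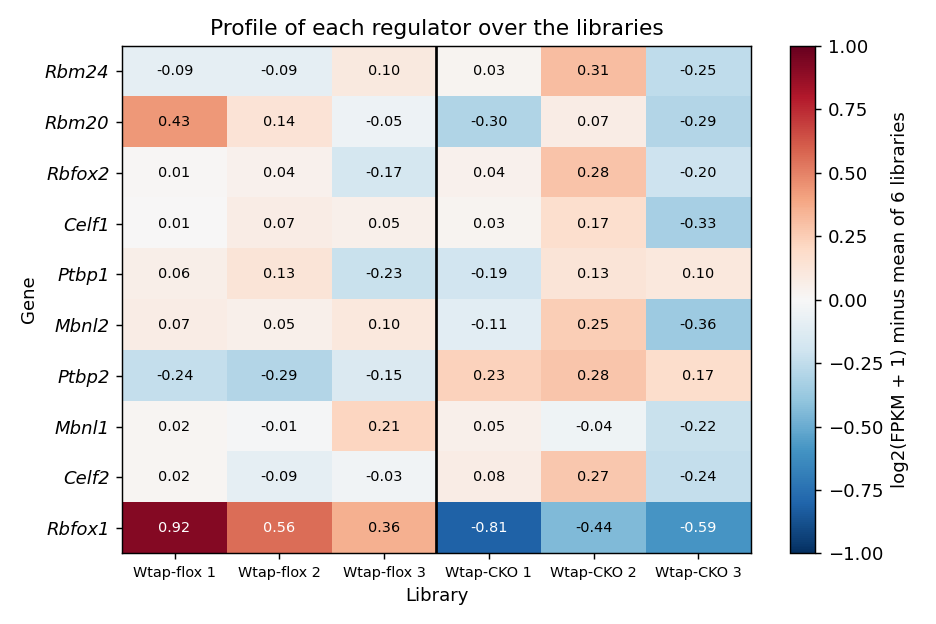
Deviation of each regulator's log2(FPKM + 1) from its mean over the 6 libraries, by library, with red for higher, blue for lower and the value in each cell. Rbfox1 and Ptbp2 change colour at the line between the groups, while Rbm24, Rbfox2, Celf1, Mbnl2 and Celf2 are highest in Wtap-CKO 2 and lowest in Wtap-CKO 3.

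Markers of other cells of the heart moved in part with the groups. Summed over 6 markers each, endothelial genes ran from 243 to 274 FPKM in Wtap-flox and from 225 to 239 in Wtap-CKO. Of the 6, 5 had a negative log2 fold change and Pecam1 a positive one (0.14). Kdr passed the test (-0.43, limma, adjusted p = 0.0497). Epicardial genes ran from 7.71 to 9.54 and from 14.3 to 19.6 FPKM, with Upk3b, Msln and Upk1b each at a mean under 1 FPKM in both groups. The 3 epicardial genes tested all had positive log2 fold changes, and Krt19 was called higher (1.35, limma, adjusted p = 0.00481). Nerve and glial genes, of interest since Rbfox1 and Ptbp2 are both abundant in neurons, overlapped at 2.72 to 3.31 and 2.62 to 3.94 FPKM. Fibroblast genes overlapped at 587 to 680 and 447 to 627 FPKM, and mural genes at 537 to 776 and 735 to 959 FPKM. Members of both lists moved in both directions. Among fibroblast genes 4 were negative, with Dcn called lower (-0.60, limma, adjusted p = 0.0336), and 2 positive, with Tcf21 at 0.21. The mural sum was mostly Acta2 (means of 509 and 719 FPKM). Of 5 mural genes tested, 2 were positive, with Cspg4 called higher (0.67, limma, adjusted p = 0.028), and 3 negative, with Rgs5 at -0.46. Erythroid genes, of which 5 of 6 were found in the table, overlapped at 602 to 2076 and 1142 to 1948 FPKM. The sum of the skeletal muscle markers ran from 364 to 426 and from 228 to 268 FPKM, but it was nearly all Ckm, a creatine kinase that heart muscle also makes (means of 385 and 254 FPKM). The other 5, Myh3, Myh8, Actn3, Myod1 and Myog, were each under 0.5 FPKM in every library. The part of endothelial, epicardial and macrophage markers in the changes of Rbfox1 and Ptbp2 was not tested.

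The closest relatives outside the 10 did not pass. Rbm38, the paralog of Rbm24, averaged 47.4 ± 3.99 FPKM over Wtap-flox hearts and 45.1 ± 6.62 over Wtap-CKO hearts (log2 fold change -0.08, adjusted p = 0.759, limma). Ptbp3 was at 9.25 ± 0.872 and 9.20 ± 1.54 FPKM (SD, n = 3; -0.02, adjusted p = 0.953). The other 6 paralogs were under the limit of 1 FPKM and were not tested. Mbnl3 was highest among them, with means of 0.343 FPKM over Wtap-flox hearts and 0.243 over Wtap-CKO hearts. Celf3, Celf4, Celf5 and Rbfox3, genes best known from the nervous system, had means between 0.0201 and 0.154 FPKM over the 6 libraries, and Celf6 was listed at 0 in all of them.

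A list of 29 other splicing regulators, such as partners of PTBP1, kinases of SR proteins and regulators of nerve and epithelium, gave 0 calls among its 22 tested members, beside 16.6% of all genes (limma, adjusted p below 0.05). At an unadjusted p under 0.05 the count was 0 higher and 0 lower as well. Of the 22, 18 had a negative and 4 a positive log2 fold change, between -0.33 and 0.16, with a median of -0.11. Limma-voom on recovered counts also called 0 in each direction. Without Wtap-CKO 3, Rbm10, an RNA-binding protein of the spliceosome (-0.47), and the muscle kinase Srpk3 (-0.46) were called lower. Rbm10 was also called lower under both fixed-total scalings (-0.48 and -0.49), and Esrp2, the epithelial splicing regulator, was called higher (0.45) when genes down to 0.1 FPKM were tested. Esrp2 lay near the floor, with means of 0.137 FPKM over Wtap-flox hearts and 0.544 over Wtap-CKO hearts. It rests on 17, 11 and 2 fragments in Wtap-flox and on 36, 39 and 41 in Wtap-CKO. Rbm10, Srpk3 and Esrp2 were singled out after their values were seen.

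Genes with exons that these regulators are known to control were examined for their total level, which says nothing of how the exons were spliced. Of 32 such genes 30 were tested, 5 were higher and 3 lower in Wtap-CKO (limma, adjusted p below 0.05), against 9.91% and 6.69% of all genes, with a median log2 fold change of -0.12. Tpm2, beta-tropomyosin, was at 22.2, 47.0 and 30.4 FPKM in Wtap-flox and at 116, 91.6 and 113 FPKM in Wtap-CKO (log2 fold change 1.71, adjusted p = 0.00346, limma). Enah, an actin regulator with a muscle-specific exon, was at 8.65, 10.4 and 9.95 FPKM and at 19.5, 25.3 and 20 FPKM (1.08, adjusted p = 0.00183). Actn1, the non-muscle alpha-actinin with exons repressed by PTB, was at 18.5, 24 and 17.6 FPKM and at 35.2, 46.6 and 45.3 FPKM (1.05, adjusted p = 0.0041). The means of these genes in Wtap-CKO were 3.21, 2.23 and 2.11 times those in Wtap-flox, and the groups lay apart.

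Pdlim3 and Pdlim5, which encode PDZ-LIM proteins of the Z-disc, were higher as well, with 0.54 and 0.83 on the log2 scale. The genes that were lower were Ryr2 (-0.97), the release channel whose transcript RBM20 is known to splice, Trdn (-0.70), triadin, and Mlip (-0.43), a lamin-interacting protein of muscle, with means of 9.06 ± 0.110 and 6.49 ± 0.778 FPKM (SD, n = 3, limma, adjusted p = 0.0371). Without Wtap-CKO 3, Tpm2 (1.67), Enah (1.13), Actn1 (0.99), Pdlim5 (0.94), Pdlim3 (0.48) and Trdn (-0.65) were still called, but Ryr2 (-0.82, adjusted p = 0.0577, limma) and Mlip (-0.39, adjusted p = 0.065) were not. Leaving out any one of the hearts Wtap-flox 1, Wtap-flox 2 and Wtap-CKO 1 ended the calls of Ryr2 and Pdlim3, and leaving out Wtap-CKO 2 or any single Wtap-flox heart ended that of Mlip. The call of Pdlim3 also ended under both fixed-total scalings. Testing every gene without a filter ended all 3 calls, and testing down to 0.1 FPKM ended that of Mlip. Titin itself, the best known RBM20 target, had -0.22 (95% interval -0.69 to 0.24, adjusted p = 0.505), the Z-disc gene Ldb3 had -0.11, Camk2d had -0.21 and cardiac troponin T, Tnnt2, had 0.26, none of which passed. Atp2a1 and Clcn1, classic MBNL targets of skeletal muscle, were under 1 FPKM and were not tested.

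**Figure D5:**
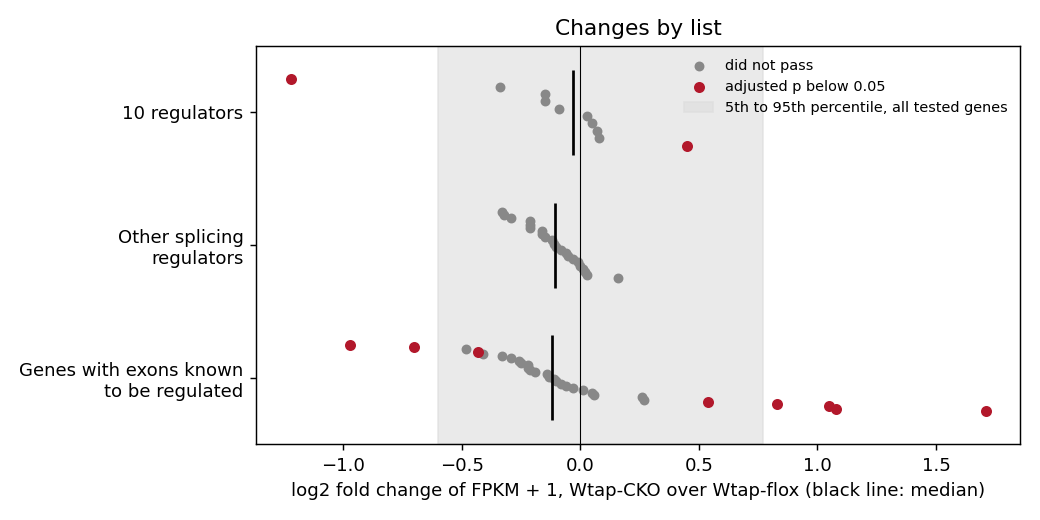
Log2 fold change of FPKM + 1 in Wtap-CKO over Wtap-flox for the tested members of each list, with red for those that passed, a black line at the median of the list and grey shading from the 5th to the 95th percentile of all tested genes (-0.60 to 0.77). Of the 10 regulators Rbfox1 alone lies outside the shading, the other splicing regulators lie between -0.33 and 0.16, and the genes with regulated exons reach from -0.97 to 1.71.

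Members of a pair are related in sequence, so the stretches they share bear on whether reads can be told apart. The canonical coding sequences of Rbfox1 and Rbfox2 were identical at 58.3% of aligned positions, those of Mbnl1 and Mbnl2 at 61.8%, those of Celf1 and Celf2 at 66.7% and those of Ptbp1 and Ptbp2 at 66.9% (GENCODE M39). The longest run of bases shared by a pair of canonical transcripts was 29, in Rbfox1 and Rbfox2, which is shorter than a read. Rbm20 and Rbm24 are not paralogs in this sense, at 16.2%. The canonical transcript of Rbfox1 held 0 copies of GGACT, 1 form of the consensus at which the WTAP complex is known to methylate, in 4403 bases. Ptbp2 held 1 copy, or 0.265 per kilobase, and Rbm24 held 7, or 2.05 per kilobase, the highest density of the 10. The median was 0.740 per kilobase over the 10 and 1.05 over 10763 canonical transcripts of tested genes. The canonical transcripts of Rbfox2 and Mbnl2 have 2218 and 2284 bases, against gene lengths of 8140 and 11993. Bases outside the canonical transcripts, introns included, were not searched. Within them the Rbfox element TGCATG occurred 2 times in Rbfox1, 4 times in Mbnl1, 2 times in Mbnl2 and 3 times in Celf2. It occurred once each in Rbm20, Celf1 and Ptbp2, and 0 times in Rbfox2, Rbm24 and Ptbp1. These are counts of letters, not of methylated or bound sites, and no methylation was measured in these libraries.

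The genes most like Rbfox1 over the 6 hearts were taken as those with the smallest root mean square distance between their log2(FPKM + 1) values, centred on each gene's mean, among 11152 protein coding genes tested. They were Fyco1 (distance 0.103), an adaptor of autophagosome transport, Syt7 (0.118), a calcium sensor of vesicle fusion, the muscle kinase Mylk4 (0.135), Ttc12 (0.136) and Abcc9 (0.141), the sulfonylurea receptor of cardiac ATP-sensitive potassium channels. The median distance of all genes was 0.665. The added 1 shrinks changes most at low levels, so likeness on this scale is not likeness in ratio. With limma-voom on recovered counts, Rbfox1 had a log2 fold change of -1.87. On that scale Fyco1 had -1.25, Syt7 -1.49, Mylk4 -1.70, Ttc12 -1.50 and Abcc9 -1.16. Abcc9 had means of 46.8 ± 9.19 and 20.9 ± 3.88 FPKM (SD, n = 3), a log2 fold change of -1.13 (limma, adjusted p = 0.0044), and of -1.01 without Wtap-CKO 3. Genes picked for likeness to a called gene share its change by that choice, so small distances and this p-value add no separate evidence. The genes most like Ptbp2 were Slc35b4 (0.0242), Rundc1 (0.0288), Arhgap1 (0.0471), Magee1 (0.0505) and Fam220a (0.0509), with a median of 0.289 over all genes.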

How the data were processed

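Polyadenylated RNA from 6 whole hearts was sequenced in read pairs, per the labels' protocols. The tools named in the submitters' processing notes are HISAT2 2.0.5 for alignment and featureCounts 1.5.0-p3 for quantification, both with that role per the series' design text, and CASAVA and DESeq2 1.20.0, with no role named. The sources used here do not give strandedness, the annotation or how overlapping genes were counted. The authors deposited FPKM values, 1 column per library, and 0 per-sample columns were left unused. Multiplied by gene length, 100.0% of values came out as whole steps of their library, within 0.01 of a step, which gave back fragments per gene. The library sizes so implied were proportional to median-ratio size factors. GRCm39 is the build in the notes. Of 20870 protein coding genes, however, 94.7% lay within 1000 bases of their GRCm38.p6 start or end, against 3.36% of 21728 for GRCm39, so coordinates are given as GRCm38.

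Genes whose mean reached 1 FPKM were tested with limma 3.58.1 (R 4.3.3) on log2(FPKM + 1), two-sided, with trend and robust options on, adjusted by Benjamini-Hochberg. The 3 hearts of a group are described as independent biological replicates, and no pair of libraries agreed within counting noise. Pair shares were compared by exact permutation tests. The procedure was tested on simulated data. The members and gene lists were chosen with earlier results of these data known. Named were the 10 members, their paralogs, Wtap, up to 8 called genes per list and 5 genes most like each of the 2 members that passed, and further genes of the lists were added after their values were seen. Alternatives were other pseudocounts (0.1 and 0.5), filters (none, 0.1 and 5 FPKM), scalings and moderation, limma-voom on the recovered counts, a replicate block and leaving out each library. Tables and figures used Python 3.11.15, pandas 2.3.3, numpy 2.4.6 and matplotlib 3.10.9.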

Additional observations from a re-analysis of the deposited data

How the results depend on the processing

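Rbfox1 kept its direction and its call under all 18 alternatives in which it was tested, with log2 fold changes between -1.87 and -1.07, and Rbm20 and Mbnl1 kept a negative sign and did not pass in any of 19. Mbnl2 did not pass either, and ran from -0.32 to 0.00, the latter without Wtap-CKO 3. With a filter at 5 FPKM Rbfox1 was not tested, so 0 members were lower. Between 0 and 1 member was higher with 1 library left out, and 0 without a filter, under TPM scaling, with a total free of mitochondrially encoded genes and with the replicate block, where Ptbp2 had an adjusted p of 0.0601 (limma) and Mlip, also no longer called, one of 0.0748. Replicate numbers did not pair the hearts: deviations of same-numbered hearts correlated at -0.216, -0.075 and -0.076, and the block called 1048 genes higher and 625 lower. Signs turned for Rbm24 (-0.02 with upper-quartile scaling, -0.17 with quantile normalization, -0.11 with TPM and -0.12 with the mitochondria-free total), Ptbp1 (-0.04, -0.10, -0.13 and -0.14), Rbfox2 (-0.05, -0.08 and -0.09 under the last 3) and Celf2 (-0.05 and -0.06 under the last 2). With 1 library left out, Rbfox2 ran from -0.04 to 0.20, Rbm24 from -0.09 to 0.19, Celf1 from -0.20 to 0.05, Celf2 from -0.05 to 0.21, Ptbp1 from -0.08 to 0.13 and the Mbnl1 share difference from -1.25 to 1.86 percentage points. Fixed-total scalings shifted the median of all genes by -0.13 and -0.14, and 33.3% and 32.7% of called genes were then higher, against 59.7% as deposited. Upper-quartile scaling gave 49.3%. Genes called higher and lower over all genes numbered 1245 and 841, and 723 and 483 without a filter, 799 and 1600 with TPM scaling, 774 and 1590 with the mitochondria-free total, 471 lower at 5 FPKM, and 709 to 1194 and 428 to 818 with 1 library left out. Of other splicing regulators 1 was higher at 0.1 FPKM, 1 lower under each fixed-total scaling and 0 to 2 lower with 1 library left out. Of genes with regulated exons 1 was lower without a filter, 5 under each fixed-total scaling and with limma-voom, and 1 to 4 with 1 library left out. A call that ended when a library was left out came from a fit with fewer samples. Rbfox1 rests on as few as 54 fragments in a heart.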
